A study of Homo sapiens with 12 samples.

Results

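The cyclins examined here were CCND1, CCND2 and CCND3 (cyclins D1 to D3), CCNE1 and CCNE2 (cyclins E1 and E2), CCNA2 (cyclin A2), CCNB1 and CCNB2 (cyclins B1 and B2), CCNF (cyclin F) and CCNG2 (cyclin G2). They are 10 of the 29123 gene names that the gene spots of the arrays carried, and the gene name on the array alone decided which probes were taken. The 10 genes were covered by 18 of the 41000 gene probes, and 16 of the 18 passed the filter on dim probes, so that each gene had at least 1 tested probe. HuH-7 cells, an established human hepatocellular carcinoma line whose p53 carries the Y220C mutation in every group, were exposed for 24 h to the solvent DMSO, to 28 µM SLMP53-2 or to 42 µM SLMP53-2, a small molecule studied as a reactivator of mutant p53. Each group held 4 biological replicates per the labels, 1 single-colour Agilent array of Cy3-labelled RNA for each, giving 12 arrays in 3 groups. The titles and the protocol of the higher dose give 42 µM, whereas the treatment field of the same samples reads 48 µM, and 42 µM is used below. All arrays come from 1 cell line with no wild-type p53 counterpart among the arrays.

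Cyclins are the regulatory subunits of cyclin-dependent kinases (CDKs), and most of them appear and are destroyed at set points of the cell cycle. D cyclins bind CDK4 and CDK6 early in G1 in response to growth signals, E cyclins bind CDK2 at the passage from G1 into S phase, cyclin A2 serves CDK2 in S phase and CDK1 later, and B cyclins drive CDK1 into mitosis. Cyclin F and cyclin G2 stand outside this scheme, since cyclin F is the substrate-binding part of a ubiquitin ligase and cyclin G2 is an atypical cyclin usually found in cells that have stopped dividing. Messenger RNA of cyclins A2, B1, B2 and F is made mainly in S, G2 and M phases.

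The percentage of gene spots well above background lay between 65.0 and 85.0 on the 12 arrays, and their median background intensity between 51.5 and 63. All 8 hepatocyte markers examined, ALB and AFP among them, were well above background on all 12 arrays, and their summed level stayed between 17.43 and 17.64 on the log2 scale in all groups. Of 13 markers of other cell types, 7 were well above background on all arrays, PTPRC, the pan-leukocyte marker, was so on none, and the sum of all 13 ranged from 10.34 up to 10.55 under DMSO, with 10.19 to 10.52 for the lower and 10.25 to 10.50 for the higher dose. The fourth 28 µM array stood apart from the other arrays of its group. Over 880 probes of other genes that passed the test at 42 µM, the other 28 µM arrays showed 0.79, 0.98 and 0.81 of the 42 µM change, the fourth array showed 0.17 of it, and the DMSO arrays lay between -0.04 and 0.03. That DMSO range is no separate baseline, since the change was measured from the DMSO mean over probes chosen with the same arrays. Whether the label of the fourth 28 µM array is right was not tested. The 28 µM differences are therefore given with and without that array.

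**Figure D1:**
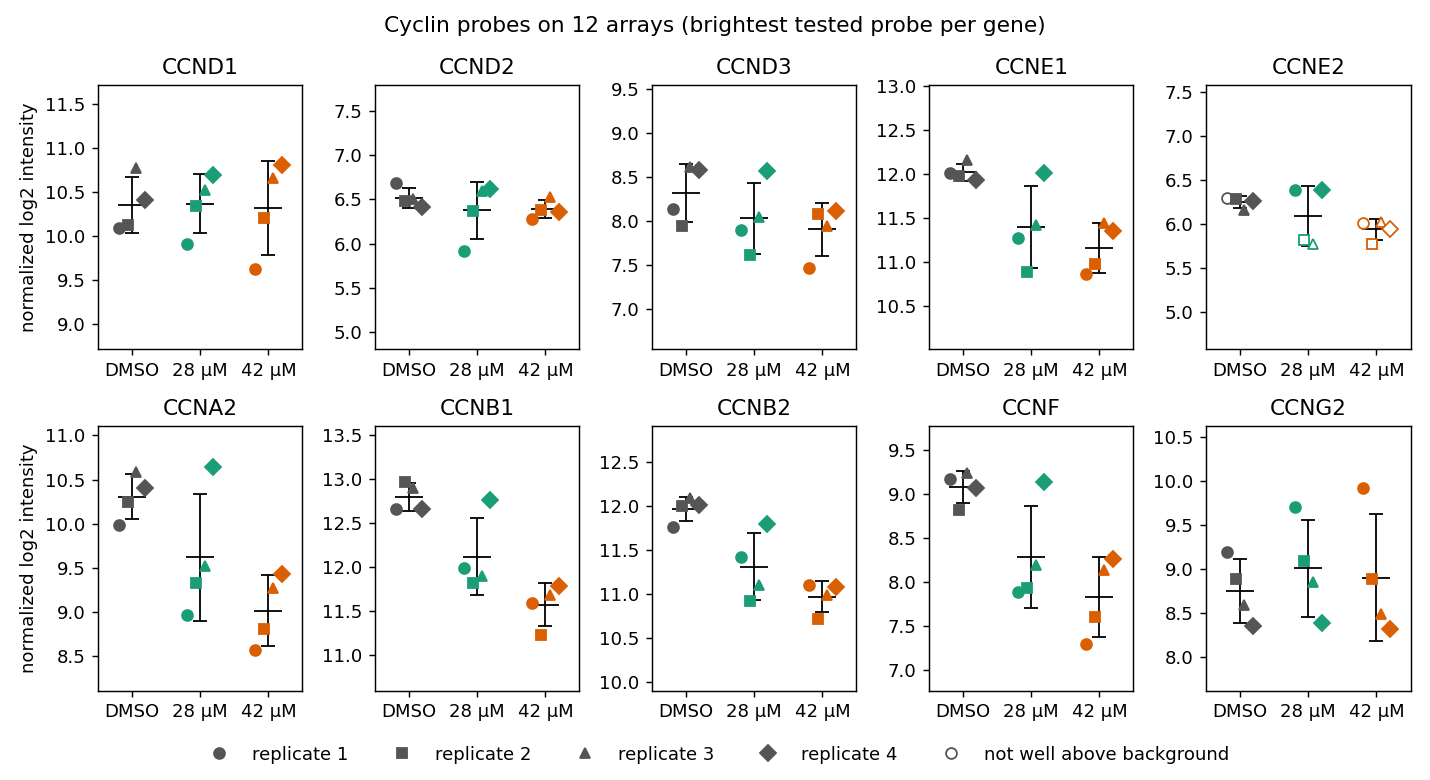
Normalized log2 intensity of the brightest tested probe of each of the 10 cyclin genes on the 12 arrays, with symbols for the 4 replicates, open symbols where the probe was not well above background, and bars for the group mean ± SD. Every panel spans 3 log2 units. The 4 arrays at 42 µM lie below the 4 DMSO arrays for CCNE1, CCNE2, CCNA2, CCNB1, CCNB2 and CCNF, and replicate 4 at 28 µM (green diamond) lies among or above the DMSO arrays for these genes.

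At 42 µM, cyclins E1, A2, B1, B2 and F fell relative to DMSO, by 1.82-fold for CCNE1, 2.45-fold for CCNA2, 2.33-fold for CCNB1, 1.99-fold for CCNB2 and 2.38-fold for CCNF. No cyclin probe was called higher, and none of the probes of the D cyclins, cyclin E2 or cyclin G2 passed the test. The second CCNF probe did not pass it either (-0.45, limma adjusted p = 0.506). A probe was called when limma's Benjamini-Hochberg adjusted p over all 33467 tested probes was under 0.05 and the log2 difference was at least 0.6 in size. By this rule 5 of the 16 cyclin probes (31.2%) were called lower at 42 µM, against 1.23% of all probes tested, and 0 of 16 were called higher, against 1.41%. No call was made at 28 µM with all 4 arrays (limma, 0 of 16 probes in either direction, 0% of all probes), where 5 cyclin probes were lower at an unadjusted p under 0.05, against 5.58% of all probes. Without replicate 4, the probes called at 42 µM were also called lower at 28 µM, 5 of 16 against 0.84% of all probes. These calls depend in part on that choice, since replicate 4 was set aside for showing little of the 42 µM change. The median difference of the 10 genes, each by its brightest probe, was -0.64 on the log2 scale at 42 µM and -0.45 at 28 µM (-0.64 without replicate 4), while the median of all probes was -0.01 at both doses (-0.02 at 28 µM without replicate 4). Bulk RNA cannot tell fewer cells in a cell cycle phase from less of the RNA in each cell.

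The calls at 42 µM changed when single arrays were left out. The count was 0 without DMSO replicate 2 or without 42 µM replicate 2, 2 without DMSO replicate 1, 3 or 4 or 42 µM replicate 1, and 3 without 28 µM replicate 3 or 42 µM replicate 3. It was also 0 with slide as a block, where the adjusted p of the genes ran from 0.0576 for CCNB1 to 0.110 for CCNE1. Over the 23 alternative settings of the test the log2 differences of these genes stayed at -0.76 or lower, and their unadjusted p (limma) did not exceed 0.00468. Within each of the 3 slides that held both DMSO and 42 µM arrays, all 5 genes were lower at 42 µM, by values given with each gene.

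**Figure D2:**
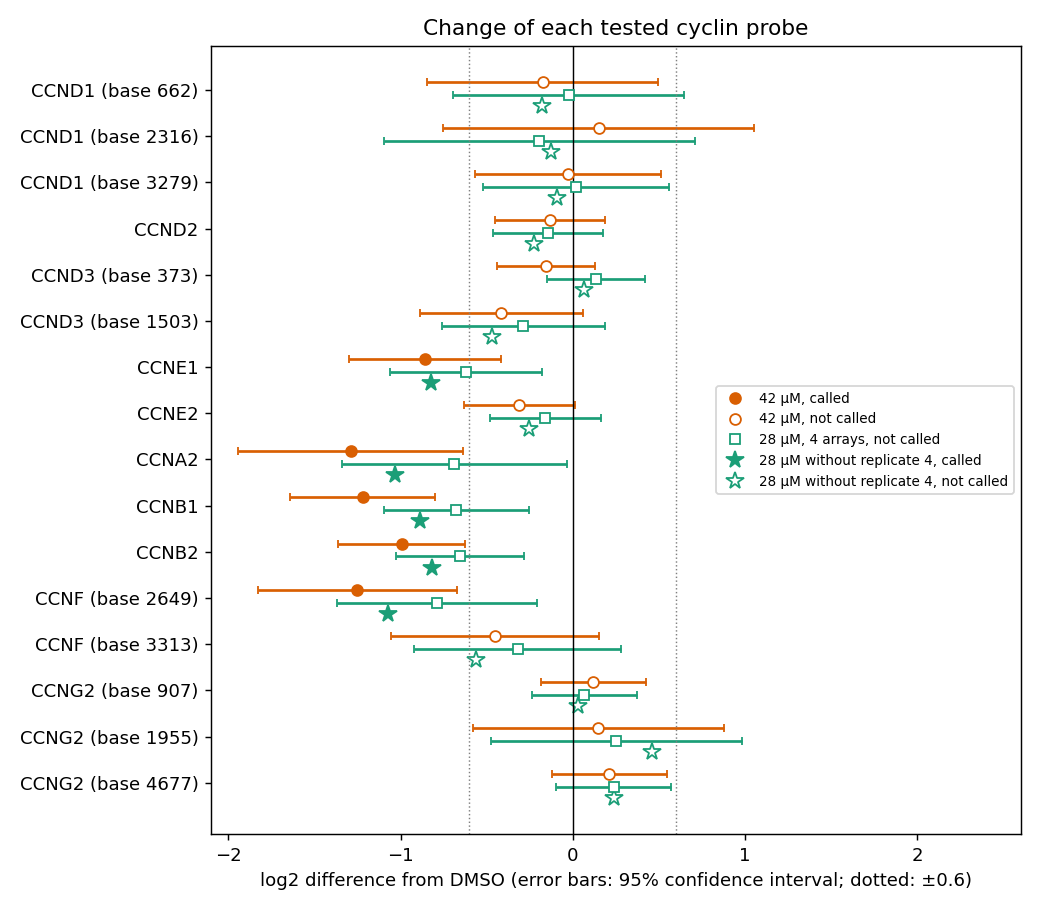
Log2 difference from DMSO of the 16 tested probes at 42 µM (circles) and at 28 µM with all 4 arrays (squares), with 95% confidence intervals, and at 28 µM without replicate 4 (stars, no interval drawn). Filled symbols were called, dotted lines mark 0.6 in either direction, and the base is the probe's first position in its transcript. The called probes of CCNE1, CCNA2, CCNB1, CCNB2 and CCNF lie between -1.29 and -0.86 at 42 µM.

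The stretches of DNA before the transcription starts of these genes are shown because the genes were called in the same direction at 42 µM. Each is the 250 bases before the start in RefSeq (GRCh38.p14), read 5′ to 3′ along the gene. Capitals mark matches on either strand to the CHR (cell cycle genes homology region, TTTGAA or TTCGAA), the CCAAT box (CCAAT) and the CRE (TGACGTCA). No other spelling of these elements was searched, so a window without a marked match may still hold one.
CCNA2, chr4:121823884-121824133, minus strand: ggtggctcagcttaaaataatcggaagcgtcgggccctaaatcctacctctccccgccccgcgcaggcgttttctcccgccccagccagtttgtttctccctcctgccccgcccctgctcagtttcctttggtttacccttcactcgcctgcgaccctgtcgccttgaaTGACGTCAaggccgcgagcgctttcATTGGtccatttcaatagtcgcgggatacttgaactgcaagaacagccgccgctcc
CCNB1, chr5:69166900-69167149, plus strand: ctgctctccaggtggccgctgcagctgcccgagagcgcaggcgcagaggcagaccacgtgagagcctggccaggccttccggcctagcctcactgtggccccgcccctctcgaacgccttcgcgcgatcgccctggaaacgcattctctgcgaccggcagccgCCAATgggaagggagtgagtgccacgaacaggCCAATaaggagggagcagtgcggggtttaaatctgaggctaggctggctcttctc
CCNB2, chr15:59104896-59105145, plus strand: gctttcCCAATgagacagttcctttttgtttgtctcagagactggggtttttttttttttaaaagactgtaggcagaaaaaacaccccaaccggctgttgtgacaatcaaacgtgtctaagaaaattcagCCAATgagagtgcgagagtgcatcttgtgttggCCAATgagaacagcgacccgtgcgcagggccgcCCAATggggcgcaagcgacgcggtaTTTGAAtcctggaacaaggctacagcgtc
CCNF, chr16:2429197-2429446, plus strand: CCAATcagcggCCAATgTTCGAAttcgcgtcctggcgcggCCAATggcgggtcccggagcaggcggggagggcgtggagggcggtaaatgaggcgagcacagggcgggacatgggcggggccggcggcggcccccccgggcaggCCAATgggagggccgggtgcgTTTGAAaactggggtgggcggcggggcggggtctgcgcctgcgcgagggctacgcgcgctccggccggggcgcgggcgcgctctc
CCNE1, chr19:29811741-29811990, plus strand: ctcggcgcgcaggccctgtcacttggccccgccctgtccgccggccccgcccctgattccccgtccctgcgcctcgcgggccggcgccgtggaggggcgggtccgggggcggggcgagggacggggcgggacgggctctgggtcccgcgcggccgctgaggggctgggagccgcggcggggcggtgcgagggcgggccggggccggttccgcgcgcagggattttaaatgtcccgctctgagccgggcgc

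CCAAT occurred 2 times before CCNB1, 4 times before CCNB2, 4 times before CCNF and in a single copy before CCNA2. In the 35116 windows of the same length in the RefSeq table, 32% held at least 1 CCAAT and 9.53% at least 2. The match nearest to the start began 54 bases before it in CCNB2, 55 in CCNB1, 56 in CCNA2, where it lay on the opposite strand as ATTGG, and 106 in CCNF. A CHR match was found before CCNB2, at base 29 before the start, and 2 times before CCNF, at bases 85 and 233, against 14.3% of all windows with at least 1. CCNA2 alone among them held the CRE, at base 81 before its start, a word present in 1.65% of all windows. The window of CCNE1 held none of these words. Neither did the window of CCNG2, whose message was not called, whereas a CCAAT lay in 1 copy in each of 2 of the 3 windows of CCND3. The search also covered an E2F word (TTTGGCG or TTTCGCG or TTTCCCG or TTTGCCG followed by C, in 2.79% of windows) and a FOXO word (GTAAACA, in 2.98%). Neither occurred in any of the 9 windows of the 7 cyclins that were searched. No match overlapped another, and no window of CCND1, CCND2 or CCNE2 was searched. These are matches of letters and not measured binding.

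Among the D cyclins, CCND1 on chromosome 11 was read by 3 probes, at hg19 chr11:69458639-69458698 (starting at base 662 of its transcript), chr11:69467270-69467329 (base 2316) and chr11:69468233-69468292 (base 3279). Which exon or untranslated part a probe meets was not looked up, since no annotation of hg19 was used here. Its probe at base 3279, printed in 10 spots per array, read 10.09, 10.12, 10.77 and 10.41 on DMSO (replicates 1 to 4), 9.91, 10.34, 10.53 and 10.69 at 28 µM and 9.62, 10.20, 10.66 and 10.81 at 42 µM. The 3 groups overlapped throughout, and the spread within each was wider than the distance between their means. The difference from DMSO was 0.02 ± 0.25 (SE, n = 4 per group) at 28 µM, -0.09 without replicate 4, and -0.03 ± 0.25 at 42 µM, with a 95% interval of -0.57 to 0.51 at 42 µM (limma adjusted p = 0.978). The sequence of the probe at base 662, as designed for the array, is shown because 1 array stood far from the others at 42 µM.
CCND1, base 662: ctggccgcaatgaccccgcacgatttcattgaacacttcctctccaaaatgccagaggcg

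This CCND1 probe read 9.97, 9.80, 10.51 and 10.18 on DMSO, 9.27, 10.28, 10.26 and 10.56 at 28 µM and 9.02, 10.15, 10.25 and 10.35 at 42 µM. Replicate 1 was the lowest array of both treated groups, and the difference at 42 µM was -0.17 with a 95% interval of -0.85 to 0.50 (limma adjusted p = 0.878). At 28 µM it was -0.02, or -0.18 without replicate 4. Values at base 2316 were 9.03, 8.61, 9.003 and 8.57 on DMSO, 7.78, 9.40, 8.86 and 8.40 at 28 µM and 7.63, 9.85, 8.86 and 9.48 at 42 µM. The first replicates of both treated groups were again lowest, while replicate 2 of both doses was above every DMSO array, which was not so at the other CCND1 probes. At 28 µM the difference was -0.19 (-0.12 without replicate 4) and at 42 µM 0.15 (limma adjusted p = 0.928). The SD at 42 µM was 0.97 at base 2316, 0.62 at base 662 and 0.53 at base 3279, against 0.25 to 0.31 on DMSO.

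**Figure D3:**
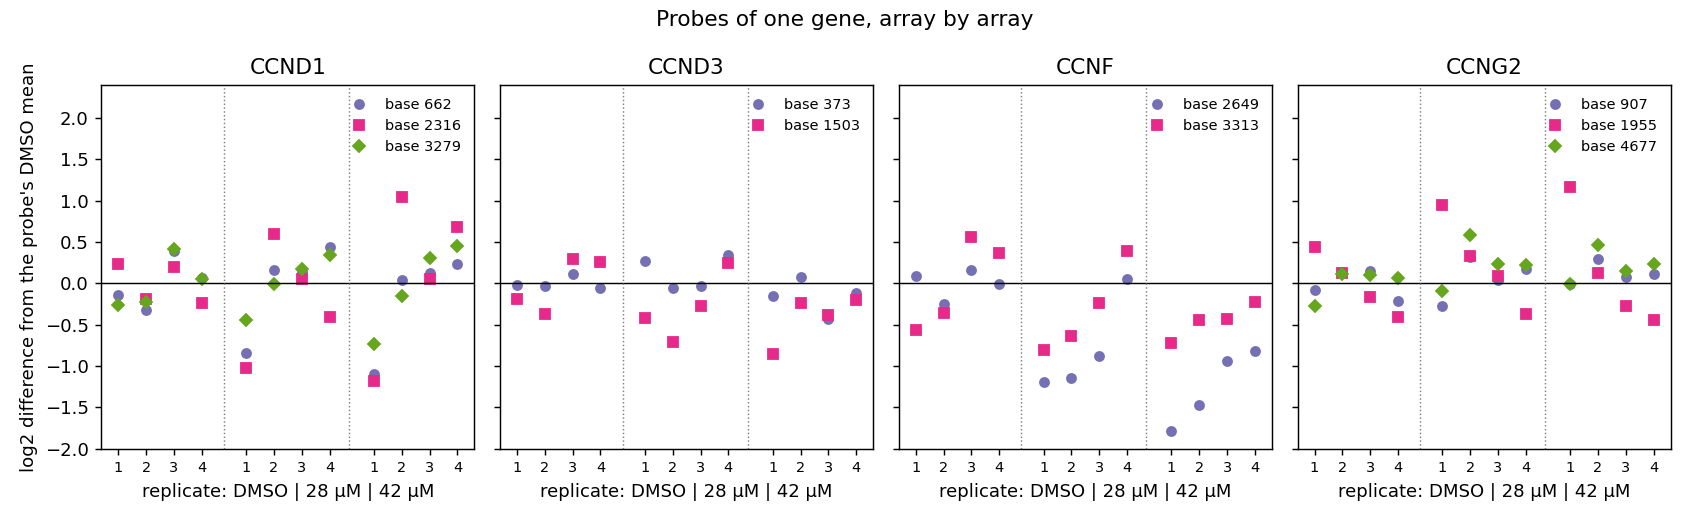
Log2 difference of each array from the probe's own DMSO mean, for the 4 genes with more than 1 tested probe (CCND1, CCND3, CCNF and CCNG2). Arrays are ordered as replicates 1 to 4 of DMSO, 28 µM and 42 µM, and symbols separate the probes by their first base in the transcript. All CCND1 probes were low on replicate 1 of both doses, and both CCNF probes were below 0 on every 42 µM array.

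CCND2 also had 3 probes, but the ones at bases 809 and 1330 of its transcript were well above background on only 2 and 1 of the 12 arrays and were not tested, with values of 5.76 to 6.18 and of 5.66 to 6.07. The tested probe, at base 6039 (chr12:4414040-4414099), read 6.68, 6.48, 6.50 and 6.42 on DMSO, 5.92, 6.36, 6.60 and 6.62 at 28 µM and 6.28, 6.38, 6.52 and 6.36 at 42 µM. The groups overlapped, with 28 µM replicate 1 the lowest array. Its difference at 42 µM was -0.13 with a 95% interval of -0.45 to 0.19 (limma adjusted p = 0.773), and at 28 µM it was -0.14, or -0.23 without replicate 4.

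CCND3 was read by probes at base 373 of its transcript, spanning an intron on chr6:41908288-41909213, and at base 1503 (chr6:41903193-41903252). At base 1503 the values were 8.14, 7.95, 8.62 and 8.58 on DMSO, 7.90, 7.62, 8.04 and 8.57 at 28 µM and 7.47, 8.09, 7.94 and 8.12 at 42 µM. The DMSO and 42 µM groups overlapped, with 2 of the 4 arrays at 42 µM below every DMSO array. The difference was -0.41 (95% interval -0.89 to 0.06, limma adjusted p = 0.408) at 42 µM and -0.29 at 28 µM, -0.47 without replicate 4. Signal at base 373 was well above background on 6 of 12 arrays, 2 in each group, and its difference was -0.16 (95% interval -0.44 to 0.13) at 42 µM and 0.13 at 28 µM, 0.06 without replicate 4.

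Cyclin E1, the partner of CDK2 at entry into S phase, was read by 1 probe at base 1837 of the CCNE1 transcript (hg19 chr19:30315106-30315165). It read 12.01, 11.98, 12.16 and 11.93 on DMSO, 11.28, 10.89, 11.42 and 12.02 at 28 µM and 10.86, 10.98, 11.44 and 11.35 at 42 µM. All 42 µM arrays were below all DMSO arrays, as were the 28 µM arrays other than replicate 4, which lay within the DMSO range. The fall at 42 µM was -0.86 ± 0.20 (SE, limma adjusted p = 0.0401), and within the 3 slides the single-array differences were between -1.18 and -0.54. At 28 µM the difference was -0.62 (adjusted p = 0.288), and -0.82 without replicate 4 (limma adjusted p = 0.0250).

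The CCNE2 probe, at base 1319 of its transcript, was close to background. It was well above background on 3 DMSO arrays, 2 arrays at 28 µM and no array at 42 µM, so it entered the test through the DMSO and 28 µM groups. Its values were 6.30, 6.28, 6.15 and 6.26 on DMSO, 6.38, 5.82, 5.77 and 6.38 at 28 µM and 6.01, 5.77, 6.03 and 5.94 at 42 µM. Every 42 µM array was below every DMSO array, which held for 6 of the 16 cyclin probes (CCNE2 and the probes of the genes called at 42 µM), against 6.48% of all probes. For CCNE2 this order carries no weight, since its probe passed the filter only through the groups where it was higher. The estimated fall of CCNE2 at 42 µM against DMSO was 1.24-fold, a log2 difference of -0.31, and the 42 µM level is only a bound. The 95% interval of this difference, -0.63 to 0.01, included no change, and the test did not call it (limma adjusted p = 0.351). At 28 µM replicates 2 and 3 were low and replicates 1 and 4 were above every DMSO array. The difference there was -0.16, or -0.26 without replicate 4.

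Cyclin A2, which serves CDK2 in S phase and CDK1 afterwards, was read by a probe at base 1321 of the CCNA2 transcript (hg19 chr4:122739995-122740054), printed in 10 spots per array.
CCNA2, base 1321: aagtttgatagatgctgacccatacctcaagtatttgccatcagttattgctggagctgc

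The CCNA2 probe read 9.99, 10.24, 10.59 and 10.40 on DMSO, 8.97, 9.33, 9.52 and 10.65 at 28 µM and 8.56, 8.80, 9.26 and 9.42 at 42 µM. The 42 µM arrays did not overlap with DMSO, and replicate 4 at 28 µM was the highest of all 12 arrays. CCNA2 fell by 1.29 on the log2 scale at 42 µM (SE 0.30, limma adjusted p = 0.0377), and within slides the differences were between -1.84 and -0.98. With 4 arrays at 28 µM the difference was -0.69 (adjusted p = 0.427), and without replicate 4 it was -1.03 (limma adjusted p = 0.0286).

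The B cyclins carry CDK1 into mitosis. Cyclin B1 was read across an intron by 1 probe at base 1334 of its transcript (hg19 chr5:68471363-68473123).
CCNB1, base 1334: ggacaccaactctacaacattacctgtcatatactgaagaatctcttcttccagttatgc

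The CCNB1 probe read 12.65, 12.96, 12.90 and 12.66 on DMSO, 11.99, 11.82, 11.90 and 12.76 at 28 µM and 11.59, 11.23, 11.69 and 11.79 at 42 µM. Every 42 µM array was below every array of both other groups, and against 28 µM this held for 1 of the 16 cyclin probes and 0.849% of all probes. CCNB1 fell by 1.22 on the log2 scale at 42 µM (SE 0.20), with the smallest adjusted p among the cyclins (limma adjusted p = 0.0125). Within slides the differences were between -1.67 and -1.07. At 28 µM the difference was -0.68 (adjusted p = 0.230), and -0.89 without replicate 4 (limma adjusted p = 0.00855).

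Cyclin B2 was read at base 1443 of the CCNB2 transcript (chr15:59417139-59417198) at 11.76, 11.995, 12.09 and 12.004 on DMSO, 11.42, 10.92, 11.10 and 11.79 at 28 µM and 11.10, 10.72, 10.98 and 11.07 at 42 µM. The 42 µM arrays again lay below all DMSO arrays, and the fourth 28 µM array lay within the DMSO range. The fall was -0.99 ± 0.17 (SE, limma adjusted p = 0.0149) at 42 µM, with within-slide differences between -1.37 and -0.91, and -0.65 (adjusted p = 0.202) at 28 µM, -0.82 without replicate 4 (limma adjusted p = 0.0139). CCNB1 and CCNB2 were among the most similar pairs of the cyclins: set relative to DMSO, their profiles over the 12 arrays differed by a root mean square of 0.18 log2 units, the same as CCNA2 and CCNF at 0.18.

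Cyclin F, which joins the SCF ubiquitin ligase through its F-box, was read by a pair of probes of the CCNF transcript. The probe at base 2649 (hg19 chr16:2507222-2507281) read 9.17, 8.82, 9.24 and 9.07 on DMSO, 7.89, 7.94, 8.19 and 9.13 at 28 µM and 7.29, 7.61, 8.14 and 8.26 at 42 µM. The 42 µM arrays were all below DMSO, and the difference was -1.25 ± 0.27 (SE, limma adjusted p = 0.0268), with within-slide differences between -1.78 and -0.68. At 28 µM it was -0.79 (adjusted p = 0.302), or -1.07 without replicate 4 (limma adjusted p = 0.0216). A second probe, at base 3313 (chr16:2507886-2507945), read 6.28, 6.49, 7.41 and 7.21 on DMSO, 6.04, 6.21, 6.62 and 7.24 at 28 µM and 6.13, 6.41, 6.42 and 6.62 at 42 µM. Its groups overlapped, and it was not called (-0.45, 95% interval -1.06 to 0.15, limma adjusted p = 0.506), so the fall of CCNF was called on 1 of its 2 probes. Its 28 µM difference was -0.32, or -0.56 without replicate 4.

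CCNG2, the atypical cyclin G2, had probes at bases 907, 1955 and 4677 of its transcript (hg19 chr4:78082710-78082859, which spans an intron, chr4:78087695-78087754 and chr4:78090417-78090476). On the one at base 1955 the values were 9.19, 8.88, 8.59 and 8.35 on DMSO, 9.70, 9.09, 8.85 and 8.38 at 28 µM and 9.92, 8.88, 8.49 and 8.32 at 42 µM. Replicate 1 was the highest and replicate 4 the lowest array in each of the 3 groups, which overlapped. The difference was 0.15 (95% interval -0.58 to 0.88, limma adjusted p = 0.908) at 42 µM and 0.25 at 28 µM, 0.46 without replicate 4. At base 907 the arrays read between 6.31 and 6.68 on DMSO, 6.25 and 6.84 at 28 µM and 6.52 and 6.82 at 42 µM, and its difference at 42 µM was 0.12 (95% interval -0.19 to 0.42), with 0.07 at 28 µM (0.03 without replicate 4). Signal at base 4677 was well above background on no DMSO array and on 2 arrays of each dose, through which it entered the test, and its difference was 0.21 (limma adjusted p = 0.599) at 42 µM and 0.24 at 28 µM with or without replicate 4.

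Between the doses no cyclin probe was called (limma, 0 of 16 in either direction, 0% of all probes). At an unadjusted p under 0.05, 2 cyclin probes were lower at 42 µM than at 28 µM, against 1.39% of all probes, namely CCNB1 (-0.54, unadjusted p = 0.0152) and the dim CCND3 probe at base 373 (-0.29, unadjusted p = 0.0468). Without 28 µM replicate 4 the difference of CCNB1 was -0.33 (unadjusted p = 0.0441), and that of CCND3 at base 373 was -0.22 (unadjusted p = 0.135). CCNA2 differed between the doses by -0.60 with all arrays (95% interval -1.26 to 0.05) and by -0.26 without replicate 4. On replicates 1 to 3 at 28 µM, the 5 genes called at 42 µM differed from the DMSO mean by -1.34 to -0.54. On replicate 4 they differed from it by -0.17 to 0.34. Part of this follows from the choice of genes, which were called against the same DMSO arrays. Replicate 4 had also been set apart for showing little of the 42 µM change. On the 4 arrays at 42 µM the same differences ran from -1.78 to -0.58.

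The genes whose profiles lay closest to a cyclin were found over the 12 arrays, each probe set relative to its DMSO mean, by the smallest root mean square difference in log2 units. For CCNB1 they were CKAP2L, a mitotic spindle protein (0.11), NDC80, an outer kinetochore subunit (0.13), and BUB1, a spindle checkpoint kinase (0.13), which were themselves lower at 42 µM by 1.19 to 1.27 log2 units. For CCND1 at base 3279 the closest was TPCN2, an endolysosomal channel gene on the same chromosome (probe at hg19 chr11:68853341-68853992, difference 0.089), followed by ARFGAP2 (0.13) and RTL8C (0.13). For CCNE2, whose range is small, they were PRDX4 (0.094), BRMS1L (0.098) and COL5A2 (0.10), and for CCNG2 at base 1955 they were RBM7 (0.15), TGDS (0.17) and RNF130 (0.18). These are descriptions over arrays that share their treatments and have no test.

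The genes that work with cyclins were counted in 5 lists. A listed gene was represented by its brightest tested probe, and its counts at 42 µM stand beside 1.23% of all probes called lower and 1.41% called higher. Among the partner kinases, 1 of 6 was called lower and 0 higher at 42 µM. This was CDK1, the kinase of cyclins A2 and B, with group means of 11.52 (DMSO), 10.93 (28 µM) and 10.28 (42 µM), a 42 µM difference of -1.23 ± 0.22 (SE, limma adjusted p = 0.0154) and a 28 µM difference of -0.59 (-0.78 without replicate 4), which was called in neither case. CDK4, the partner of the D cyclins, was 0.58 higher (limma adjusted p = 0.0411) and under the size limit. Among regulators of the kinases, 2 of 10 were called lower, against 1.23% of all probes, and none higher. They were PKMYT1 (-0.99, limma adjusted p = 0.0268), which phosphorylates and restrains CDK1, and CKS2 (-0.74, adjusted p = 0.0391), a small CDK-binding subunit.

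Of 22 genes that serve cyclin destruction, 2 were called lower and 1 higher at 42 µM, against 1.23% and 1.41% of all probes. FBXO5, an inhibitor of the anaphase-promoting complex (APC/C), was at -1.38 ± 0.23 (SE, limma adjusted p = 0.0131), and UBE2C, the ubiquitin-conjugating enzyme that works with the APC/C, was at -1.03 (adjusted p = 0.0421). The one that rose, CDC16, a core APC/C subunit, was 0.66 higher (adjusted p = 0.0242) and is named because it ran the other way. The median over each list was -0.22 for the partner kinases, -0.49 for the kinase regulators and -0.23 for the destruction genes, against -0.01 for all probes. At 28 µM no listed gene was called with all arrays (limma, 0% of all probes), and without replicate 4 only FBXO5 was (-1.12), lower, against 0.84% of all probes. At 42 µM no call was made for the 8 tested genes among other cell cycle cyclins (limma, 0 at an unadjusted p under 0.05, median 0.07) or for the 6 transcriptional cyclins, which serve kinases of RNA polymerase (limma, 2 higher at an unadjusted p under 0.05, median -0.03). Of all probes, 7.14% were lower and 8.23% higher at an unadjusted p under 0.05. The differences of these other cyclins at 42 µM ran from -0.15 to 0.45 and from -0.10 to 0.79.

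**Figure D4:**
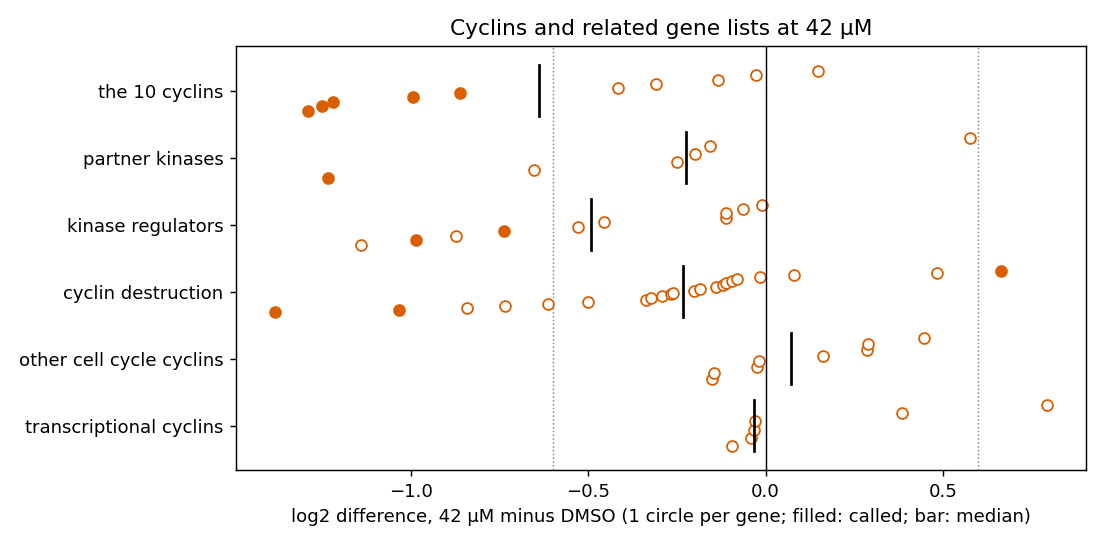
Log2 difference between 42 µM and DMSO for the 10 cyclins, each by its brightest probe, and for the genes of 5 related lists, 1 circle per gene. Filled circles were called, bars mark the medians and dotted lines mark 0.6 in either direction. Called genes lie on the lower side in the cyclins and the kinase lists, and the destruction genes hold FBXO5 at -1.38 and CDC16 at 0.66.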

How the data were processed

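Total RNA of HuH-7 cells was labelled with Cy3 and hybridized to 60-base-probe Agilent arrays by the authors, who deposited each array's scanner output as spot intensities from Feature Extraction 10.7.3.1, per the file headers with probe positions on hg19, and a table of normalized log2 values used here as an alternative. The spot mean intensities were corrected by the Edwards method with the local background median, quantile normalized and averaged per probe as log2 values, leaving out spots with outlier flags. Probes that the scanner software marked well above background in 2 or more of the 4 arrays of 1 group (33467 of 41000) were tested with limma 3.58.1 in R 4.3.3 on all 12 arrays with 3 group means, without a block, and Benjamini-Hochberg adjusted over all of them. The procedure was tested on simulated data. Each slide held arrays of 2 or 3 groups, and the number of arrays limits the precision. Replicate numbers were not taken as pairs, and whether they mark pairs was not tested. Correlations of same-numbered arrays were -0.46 to 0.62 (median 0.22). For arrays that shared a slide they were -0.22 to 0.62 (median 0.26). The value of 0.62 came from replicate 1 of both doses, which shared number and slide. For arrays that shared neither number nor slide they were -0.59 to 0.57 (median -0.18). The cyclins, lists and motif words were chosen with earlier results of these data known. All cyclin probes are described, and the 3 nearest profiles are given for 4 cyclins. At most the 2 largest called changes per list are named. Exceptions are CDC16, added after its value was seen, and CDK4, which was not called. Promoter windows came from RefSeq tables (GRCh38.p14) and were searched with Python.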

Additional observations from a re-analysis of the deposited data

Results flagged for a closer look

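In 2 of 48 groups of 4 arrays examined, 1 array lay far from the others, a rule that chance meets in about 1 of 20 groups. The CCND1 probe at base 662 was at 9.02 on 42 µM replicate 1, whereas the rest of that group gave 10.15 to 10.35, and without that array its difference from DMSO was 0.13 in place of -0.17, with no call in either case (limma adjusted p = 0.918 and 0.878). The CCNG2 probe at base 4677 was at 5.61 on DMSO replicate 1 and between 5.94 and 5.99 elsewhere under DMSO, and it was well above background on no DMSO array.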

How the results depend on the processing

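The number of cyclin probes called at 42 µM against DMSO was 5. It was 2 with Feature Extraction's processed signal, 0 with slide as a block, 3 with a 2-fold limit and 4 with the authors' normalized values. With the replicate number as a block it was 5, though whether these numbers mark pairs was not tested. Leaving out 1 array at a time gave 0 to 5, with 0 without DMSO replicate 2 or 42 µM replicate 2. At 28 µM the count was 0, and 0 to 5 leaving out 1 array, with 5 without 28 µM replicate 4 alone. Between the doses it was 0 in all settings tried (limma). The causes were not tested. No probe's called difference changed sign. Of the probe values with all arrays kept, 510 stayed on their side of the threshold and 9 lost a call, and of those with 1 array left out 545 stayed, 26 lost and 5 gained a call. Single-array differences within slides, added after seeing the data, moved by over 1 replicate SD in 69 cases and by less in 75. Probes near background, such as CCNE2 and the CCND2 probes, give bounds at best.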
